A study of Mus musculus with 2 samples.

Results

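Transcripts of 10 genes of the MHC class I antigen presentation route were followed across leukocyte lineages of mouse lung: H2-K1, H2-D1, B2m, Tap1, Tap2, Tapbp, Psmb8, Psmb9, Psmb10 and Nlrc5. They were chosen by name, with earlier results of these data known, and all 10 were present among the 16184 genes of both libraries. The data were 2 single-cell RNA libraries of live CD45-positive cells sorted from lungs, 1 named PBS and 1 named DT, with 4 mice per group and no label that ties a cell to an animal. Both groups were Scgb1a1cre/iDTR mice, in which Cre driven by the promoter of the club cell gene Scgb1a1 permits a diphtheria toxin receptor to be made, and both received 150000 HKP1 tumour cells by tail vein in 100 µL. Both were given tamoxifen at 2 mg per 20 g on days 3 to 7, 250 µg of anti-PD-1 antibody (clone RMP1-14) on day 6, and 3 daily radiation doses of 4 Gy, the first on day 10 and the last on day 12. The series design gives PBS as the control and DT, diphtheria toxin, as the treatment that depletes club cells, while the treatment field lists 2 toxin doses of 600 ng per 20 g on days 8 to 9 for both samples alike. Lungs were taken 24 to 48 h after radiation according to 1 label field, and on the day after it according to another. The labels state neither the sex of the animals, nor their age, nor their H2 haplotype.

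As background, class I molecules are made of a polymorphic heavy chain, encoded in mouse by genes such as H2-K1 and H2-D1, and the invariant light chain beta-2 microglobulin (B2m), and they show peptides from inside the cell to CD8 T cells while NK cells read their presence. The peptides are cut by the proteasome, whose catalytic subunits Psmb5, Psmb6 and Psmb7 are replaced by Psmb8, Psmb9 and Psmb10 in the immunoproteasome. Tap1 and Tap2 form the transporter that carries peptides into the endoplasmic reticulum, tapasin (Tapbp) holds empty class I molecules at that transporter, and Nlrc5 is a transactivator of class I genes that acts with the RFX, NF-Y and CREB family factors bound at their promoters. Interferon-gamma raises the transcription of this whole group.

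Of the 10 genes, 7 lie on chromosome 17, which holds the mouse MHC (GRCm38 coordinates from GENCODE M21). Tap1 (chr17:34187553-34197225), Psmb8 (chr17:34197721-34201454), Psmb9 (chr17:34181987-34187764) and Tap2 (chr17:34203527-34216321) are neighbours. H2-K1 (chr17:33996017-34000347) and Tapbp (chr17:33915899-33929292) lie to one side and H2-D1 (chr17:35262730-35267499) to the other. B2m lies on chromosome 2 (chr2:122147686-122153083), and Psmb10 (chr8:105935735-105938444) and Nlrc5 (chr8:94434356-94527272) on chromosome 8. All are annotated as protein-coding.

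The sequences just before the transcription start are shown because the class I genes are known to be controlled there, and because Tap1 and Psmb9 share theirs. They come from RefSeq (GRCm38.p6), which matched 8 of the 10 genes, all but Tap2 and Nlrc5. Capitals mark a kappa-B match, an ISRE match (GAAANNGAAA) and the letters TGACG, the core of a CRE half-site, each searched on both strands. The first 3 lines are the 250 bases before the start of H2-K1 (chr17:34000348-34000597, minus strand), H2-D1 (chr17:35262844-35263093, plus strand) and B2m (chr2:122147437-122147686, plus strand). The last line holds the 225 bases between the starts of Psmb9 and Tap1, read on the strand of Tap1 (chr17:34187331-34187555, plus strand).
H2-K1: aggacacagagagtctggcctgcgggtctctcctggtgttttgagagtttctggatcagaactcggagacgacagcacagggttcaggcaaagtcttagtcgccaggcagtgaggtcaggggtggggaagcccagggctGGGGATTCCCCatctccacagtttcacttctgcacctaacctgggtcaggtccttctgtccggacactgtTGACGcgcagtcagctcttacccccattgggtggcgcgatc
H2-D1: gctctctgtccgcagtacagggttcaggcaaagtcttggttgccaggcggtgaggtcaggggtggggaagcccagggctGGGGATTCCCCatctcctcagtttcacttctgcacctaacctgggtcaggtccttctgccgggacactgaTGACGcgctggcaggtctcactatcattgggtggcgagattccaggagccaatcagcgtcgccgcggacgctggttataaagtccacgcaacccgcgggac
B2m: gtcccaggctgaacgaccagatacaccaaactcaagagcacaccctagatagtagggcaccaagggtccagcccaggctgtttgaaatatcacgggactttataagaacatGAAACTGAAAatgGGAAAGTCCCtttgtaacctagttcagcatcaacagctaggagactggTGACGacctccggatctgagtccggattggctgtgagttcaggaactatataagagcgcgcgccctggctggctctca
Psmb9 to Tap1: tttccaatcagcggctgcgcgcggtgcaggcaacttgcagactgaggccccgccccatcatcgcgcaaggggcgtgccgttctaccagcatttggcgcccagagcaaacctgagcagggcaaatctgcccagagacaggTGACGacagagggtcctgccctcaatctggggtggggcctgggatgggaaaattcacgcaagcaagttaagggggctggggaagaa

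The H2-K1 and H2-D1 windows were nearly the same sequence over the part that aligned, at an offset from the start. In a global alignment, 170 of 190 aligned bases were identical (89.5%), and both windows held 2 overlapping kappa-B matches, which print as 1 run of capitals, followed by TGACG. The kappa-B matches began at position -111 in H2-K1 and -171 in H2-D1, counted from the start, and TGACG at -41 and -101. B2m was the only one of the 8 genes with a match to the ISRE pattern GAAANNGAAA (position -139 to -130). This match stood next to a kappa-B match (-126 to -117) and upstream of TGACG (-78 to -74). Only exact matches to that pattern were counted, so a gene without one may still hold a variant of the site. In the region between Psmb9 and Tap1, TGACG began 86 bases before the Tap1 start. A CCAAT box lay 222 bases before that start.

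Across these 8 windows, TGACG occurred in 5 (H2-K1, H2-D1, B2m, Tap1 and Psmb9, of which the last pair share the same site), against 17.8% of 32851 RefSeq promoter windows of the same length. A kappa-B match occurred in 3 of 8 against 7.25%, and an ISRE match in 1 of 8 against 2.98%. A GAS match (TTCNNNGAA) was present only before Psmb8 (-97 to -89) and in 7.02% of all windows. The CCAAT box was found in 6 of 8 against 33.8%, the GC box (GGGCGG) in 3 of 8 against 32.7%, and TATAAA in 3 of 8 against 12.4%. The CCAAT box and the GC box of Tap1 and Psmb9 are also 1 shared site each, counted for both genes. Before Psmb5 and Psmb6, the constitutive partners with a window, TGACG was present in 2 of 2 and kappa-B and ISRE in 0 of 2. These are matches of letters, not measured binding.

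After filtering, 5651 PBS cells with 31066272 UMIs and 5896 DT cells with 27785808 UMIs were analysed, at a median of 3749 and 3051.5 UMIs per cell, a UMI being 1 counted RNA molecule. A cell entered a gate with at least 1 UMI of the gate gene: Cd4, Cd8b1 (CD8), Ncr1 (NK), Cd79a (B), Csf3r with S100a8 (neutrophil), Ly6c2 with Ccr2 (classical monocyte), C1qa (C1q macrophage), Clec9a (cDC1, type 1 conventional dendritic cell) or Marco (alveolar macrophage). In PBS and DT the gates held 508 and 504 CD4 cells, 529 and 490 CD8, 306 and 258 NK, 1561 and 1183 B, 1058 and 1492 neutrophil, 538 and 518 monocyte, 541 and 622 C1q macrophage, 165 and 178 cDC1, and 64 and 28 alveolar macrophage cells. The median share of cells with a UMI of a marker, over the 6 markers of a gate's own list, was 73.6% to 93.6% in 7 gates. It was 64.8% in PBS and 50% in DT alveolar macrophages. In the cDC1 gate it was only 38.8% in PBS and 46.9% in DT, beside 46.1% and 41.6% for the classical monocyte list in the same cells. The gates were not pure. From 9.89% (B, DT) to 68.5% (cDC1, PBS) of a gate's cells also passed another gate, and in the cDC1 gate Xcr1, a defining marker of these cells, had a UMI in only 9.70% of PBS and 11.2% of DT cells, while Irf8 had one in 82.4% and 74.2%. Levels below therefore describe cells with the gate RNA, and droplets that hold more than 1 cell or free RNA were not removed. Scgb1a1 RNA, which leukocytes do not make, was found at 11.7 to 46.5 CPM in the PBS gates and at 0 to 3.76 CPM in the DT gates. Only 8 cell barcodes occurred in both libraries.

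Levels are given as UMIs of a gene scaled to a fixed total of UMIs in a gate (CPM), and intervals are exact 95% intervals for counting error alone. There is 1 library per group, so no spread between mice is known and no test between PBS and DT was made. Together the 10 genes took 0.703% (alveolar macrophage, PBS) to 1.17% (CD4, DT) of a gate's UMIs, and 66.3% to 83.2% of those came from the H2-K1, H2-D1 and B2m chains.

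**Figure D1:**
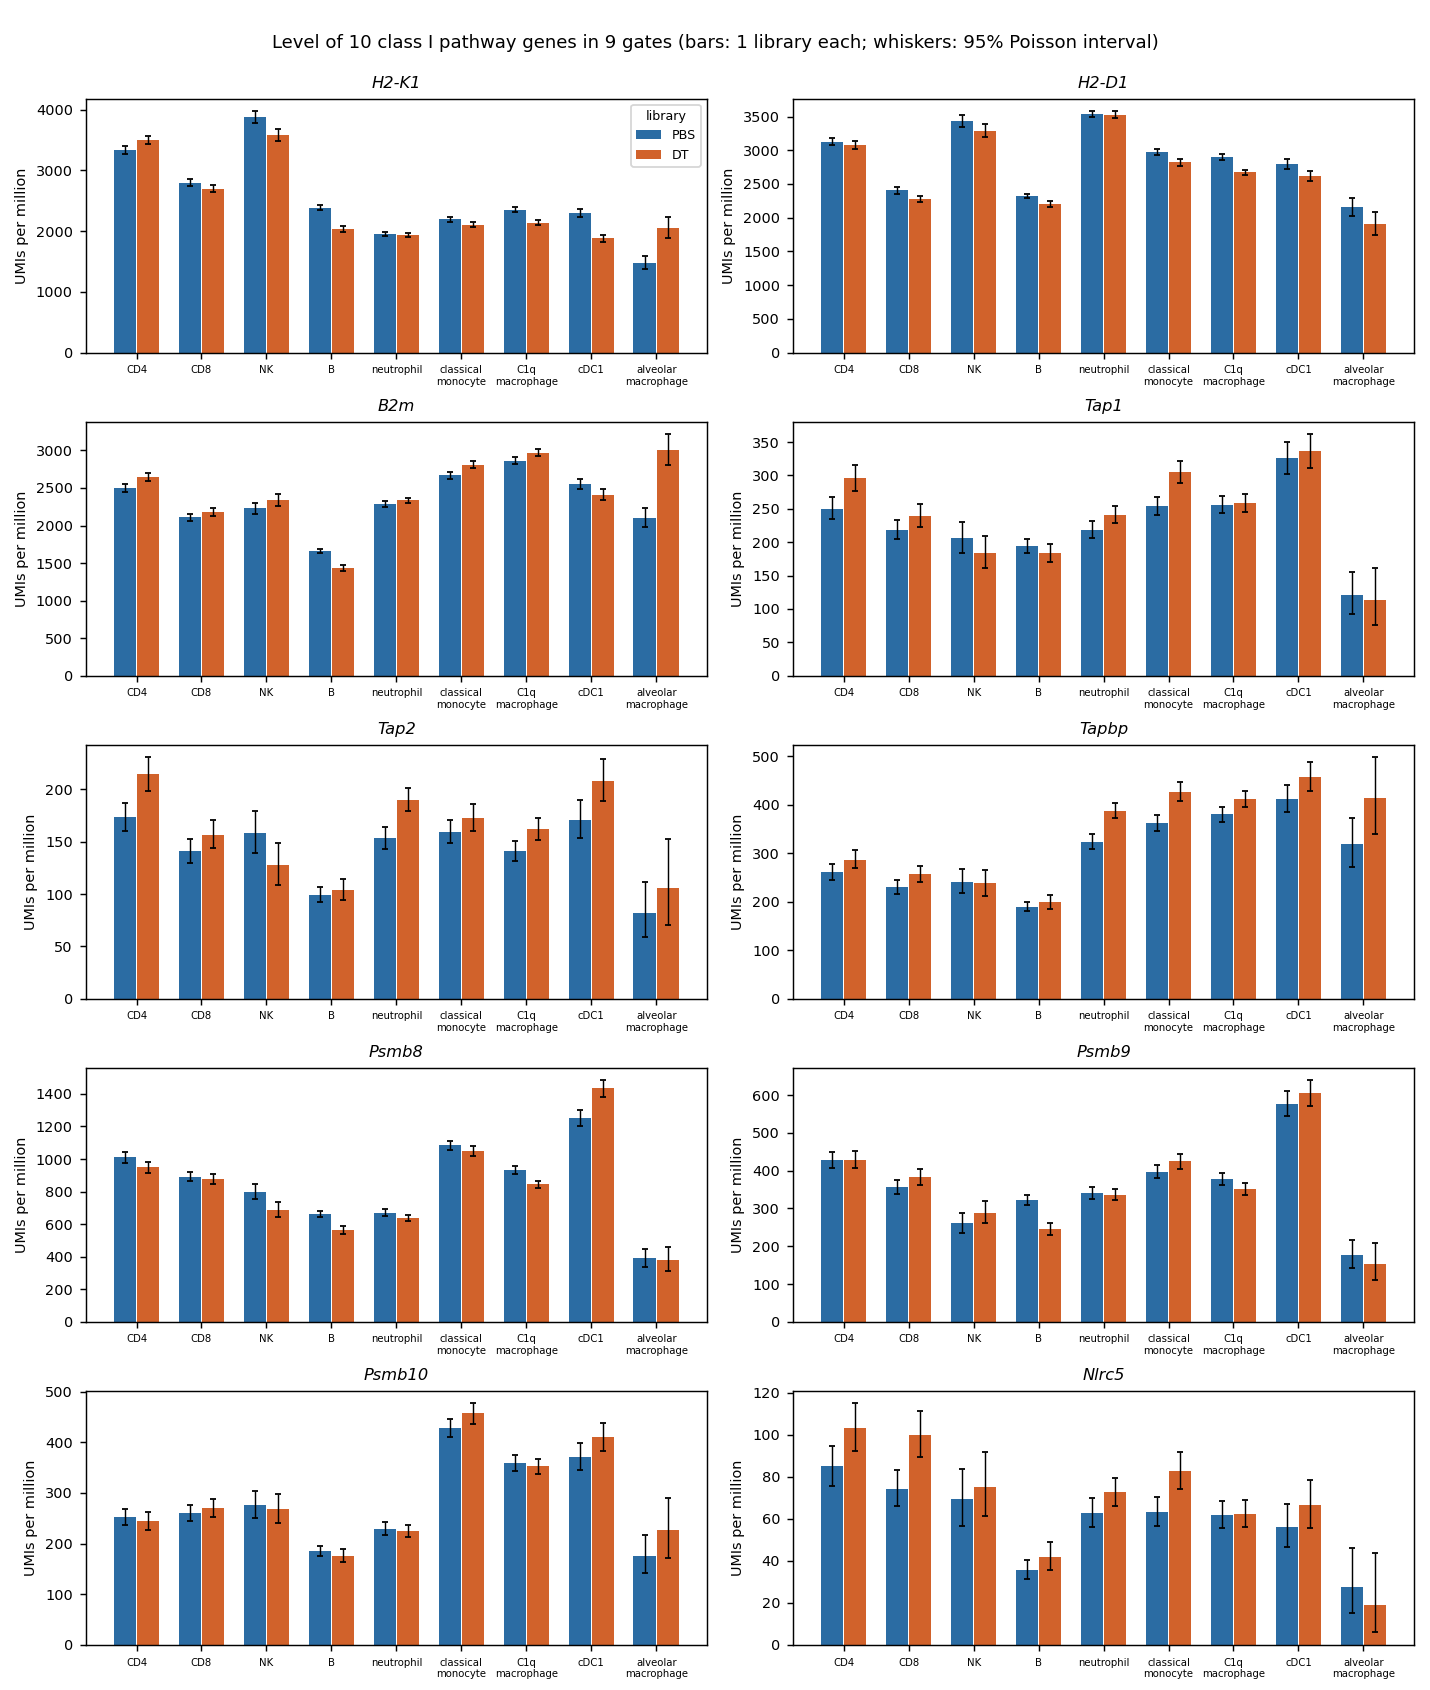
Level of each of the 10 genes (y axis, CPM) in the 9 gates (x axis) of the PBS and DT libraries. Bars stand for 1 library each and whiskers for the exact 95% Poisson interval; H2-K1 peaked in the NK gate, H2-D1 in the neutrophil gate, and Tap1, Tapbp, Psmb8 and Psmb9 in the cDC1 gate of both libraries.

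Among the heavy chains, H2-K1 was highest in the NK, CD4 and CD8 gates. It stood at 3881 CPM in PBS and 3579 in DT in the NK gate, 3334 and 3501 in CD4, and 2799 and 2701 in CD8. B cells followed at 2385 and 2031, C1q macrophages at 2353 and 2138, monocytes at 2194 and 2108, and the cDC1 gate at 2291 and 1881. Neutrophils were low at 1952 and 1935, and alveolar macrophages had 1478 in PBS but 2058 in DT. In PBS the intervals of B, C1q macrophage, cDC1 and monocyte gates overlapped between neighbours, while NK, CD4 and CD8 stood apart from each other and from the rest. In DT the intervals of NK and CD4 overlapped.

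H2-D1, the other heavy chain gene, kept the same order of gates in both libraries (Spearman's rho 1 over 9 gates, a description). Neutrophils were highest at 3536 CPM in PBS and 3530 in DT, followed by NK at 3434 and 3288 and CD4 at 3127 and 3080. Monocytes had 2979 and 2822, C1q macrophages 2902 and 2671, and cDC1 2798 and 2621. The low end was formed by CD8 at 2406 and 2277, B at 2323 and 2201, and alveolar macrophages at 2157 and 1908. The gate that was highest for H2-D1 was thus second lowest for H2-K1 in both libraries.

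The share of H2-K1 among the UMIs of both heavy chains, which does not depend on library scaling, shows this contrast directly. Such a share is compared across gates and between libraries, and its level within a gate is not read as a ratio of molecules, since the capture of 2 different RNAs is not equal. Neutrophils had 35.6% of PBS UMIs (35.0 to 36.1), and 35.4% of DT UMIs (34.9 to 35.9), the lowest of all gates. CD4, CD8 and NK ran from 51.6% to 54.3%, with 53.8% (53.1 to 54.4) and 54.3% (53.5 to 55.0) in CD8. Monocytes had 42.4% and 42.8%, C1q macrophages 44.8% and 44.5%, the cDC1 gate 45.0% and 41.8%, and B cells 50.7% and 48.0%. Between the libraries the intervals stood apart in the B, cDC1, CD4 (51.6% and 53.2%) and alveolar macrophage gates, and overlapped in the others. The neutrophil interval met that of no other gate in either library. Restricting the gate to cells that passed no other gate moved the neutrophil share to 28.4% in PBS and 28.9% in DT, and the monocyte share to 35.6% and 37.0%. The near equality of the libraries did not hold in male-called neutrophils, as defined below, at 38.8% in PBS and 30.3% in DT. In DT, female-called neutrophils had 2457 CPM of H2-K1 and 3281 of H2-D1, and male-called ones 1528 and 3511.

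Counted per cell, the same contrast held at equal depth. After each cell was thinned to 1000 UMIs, which left out 36 PBS and 43 DT neutrophils as too shallow, 67.6% (64.6 to 70.5) of PBS and 66.0% (63.5 to 68.5) of DT neutrophils had an H2-K1 UMI. For H2-D1 the shares were 95.2% (93.7 to 96.4) and 94.0% (92.6 to 95.2). In NK cells H2-K1 was seen in 98.4% and 94.2% and H2-D1 in 95.7% and 94.9%. Without thinning, neutrophils had H2-K1 UMIs in 85.3% and 83.5% and H2-D1 UMIs in 99.4% and 99.1% of cells. No gate here lacks class I molecules, so no share from a negative cell type can be set beside these.

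The light chain gene B2m had a highest gate 1.73 times its lowest in PBS and 2.10 times in DT. B cells were lowest at 1660 CPM in PBS and 1434 in DT, and C1q macrophages were high at 2864 and 2969. Between them lay monocytes at 2669 and 2812, cDC1 at 2548 and 2413, CD4 at 2495 and 2644, neutrophils at 2281 and 2335, NK at 2228 and 2337, and CD8 at 2109 and 2181. The alveolar macrophage gate had 2098 in PBS and 3007 in DT, where its interval overlapped that of C1q macrophages. The orders of gates in the 2 libraries had a rho of 0.50, the lowest of the 10 genes. The alveolar macrophage gate, with only 64 PBS and 28 DT cells, stood at rank 8 in PBS and rank 1 in DT.

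The transporter subunit Tap1 was highest in the cDC1 gate, at 325 CPM in PBS and 336 in DT. C1q macrophages had 256 and 258, monocytes 254 and 304, and CD4 cells 250 and 296. Neutrophils (219 and 241), CD8 (219 and 240), NK (206 and 184) and B (194 and 184) followed, and alveolar macrophages had 121 and 113 on only 62 and 30 UMIs. In PBS, cDC1 at the top and alveolar macrophages at the bottom stood apart from their neighbours. In DT, the intervals of cDC1, monocyte and CD4 gates overlapped.

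Its partner Tap2 gave a flatter profile. CD4 led with 173 CPM in PBS and 214 in DT, and cDC1 had 171 and 208, monocytes 160 and 173, neutrophils 153 and 190, C1q macrophages 141 and 162, CD8 141 and 157, and NK 158 and 128. B cells at 100 and 104 and alveolar macrophages at 82.2 and 105 were low. Apart from the step to B cells in PBS, the intervals of neighbours in the order overlapped in both libraries. The Tap1 share of Tap1 and Tap2 UMIs lay between 51.7% and 66.1% in all 18 gate and library combinations, and its intervals overlapped between PBS and DT in each gate.

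Tapbp was a myeloid-weighted transcript. The cDC1 gate had 412 CPM in PBS and 458 in DT, C1q macrophages 380 and 413, monocytes 363 and 427, neutrophils 324 and 388, and alveolar macrophages 319 and 414. The lymphoid gates were lower, with CD4 at 261 and 287, NK at 242 and 238, CD8 at 230 and 257, and B cells at 190 and 200. Across the 18 gate and library points the log2 levels of Tapbp and H2-K1 had a Pearson r of -0.50, the lowest of the 45 pairs.

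Of the immunoproteasome subunits, Psmb8 and Psmb9 peaked in the cDC1 gate and were lowest in alveolar macrophages. Psmb8 stood at 1250 CPM in PBS and 1434 in DT in cDC1, 1085 and 1049 in monocytes, 1009 and 949 in CD4, 930 and 844 in C1q macrophages, and 893 and 875 in CD8. It had 800 and 687 in NK, 669 and 637 in neutrophils, 664 and 564 in B, and 390 and 380 in alveolar macrophages. The highest gate was thus 3.21 times the lowest in PBS and 3.77 times in DT, and cDC1 and alveolar macrophages stood apart from their neighbours in both.

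Psmb9 stood at 576 CPM in PBS and 606 in DT in cDC1, 428 and 429 in CD4, 397 and 424 in monocytes, 378 and 351 in C1q macrophages, and 356 and 384 in CD8. Neutrophils had 340 and 337, B 322 and 246, NK 261 and 289, and alveolar macrophages 176 and 154. Psmb10, the third subunit, was ordered differently and led in monocytes at 428 and 457, with cDC1 at 371 and 410 and C1q macrophages at 358 and 352. NK had 276 and 268, CD8 260 and 270, CD4 252 and 244, and neutrophils 229 and 225, with B cells at 185 and 176 and alveolar macrophages at 176 and 226.

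For each immunosubunit, its share of UMIs within the pair with its constitutive partner was compared across gates and between libraries. As for the heavy chains, the level of such a share is not read as a ratio of molecules, nor as the extent of subunit replacement. Psmb8 made up 76.5% to 86.4% of Psmb8 and Psmb5 UMIs in 8 gates, while the alveolar macrophage gate had 66.1% (60.5 to 71.4) for PBS against 66.9% (58.8 to 74.3) for DT, on 102 and 50 Psmb5 UMIs. Psmb9 made up 52.4% to 67.3% of Psmb9 and Psmb6 UMIs in those 8 gates, highest in neutrophils at 67.3% in both libraries. In alveolar macrophages it made up 41.9% (35.2 to 48.8) and 32.5% (24.5 to 41.5), the lowest of all gates. Psmb10 made up 92.3% to 97.6% of Psmb10 and Psmb7 UMIs, but Psmb7 had only 2 to 76 UMIs per gate, and the last 400 bases of Psmb5 share 54.6% of their 75-base windows with Gm3375, so both of these denominators are uncertain.

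**Figure D2:**
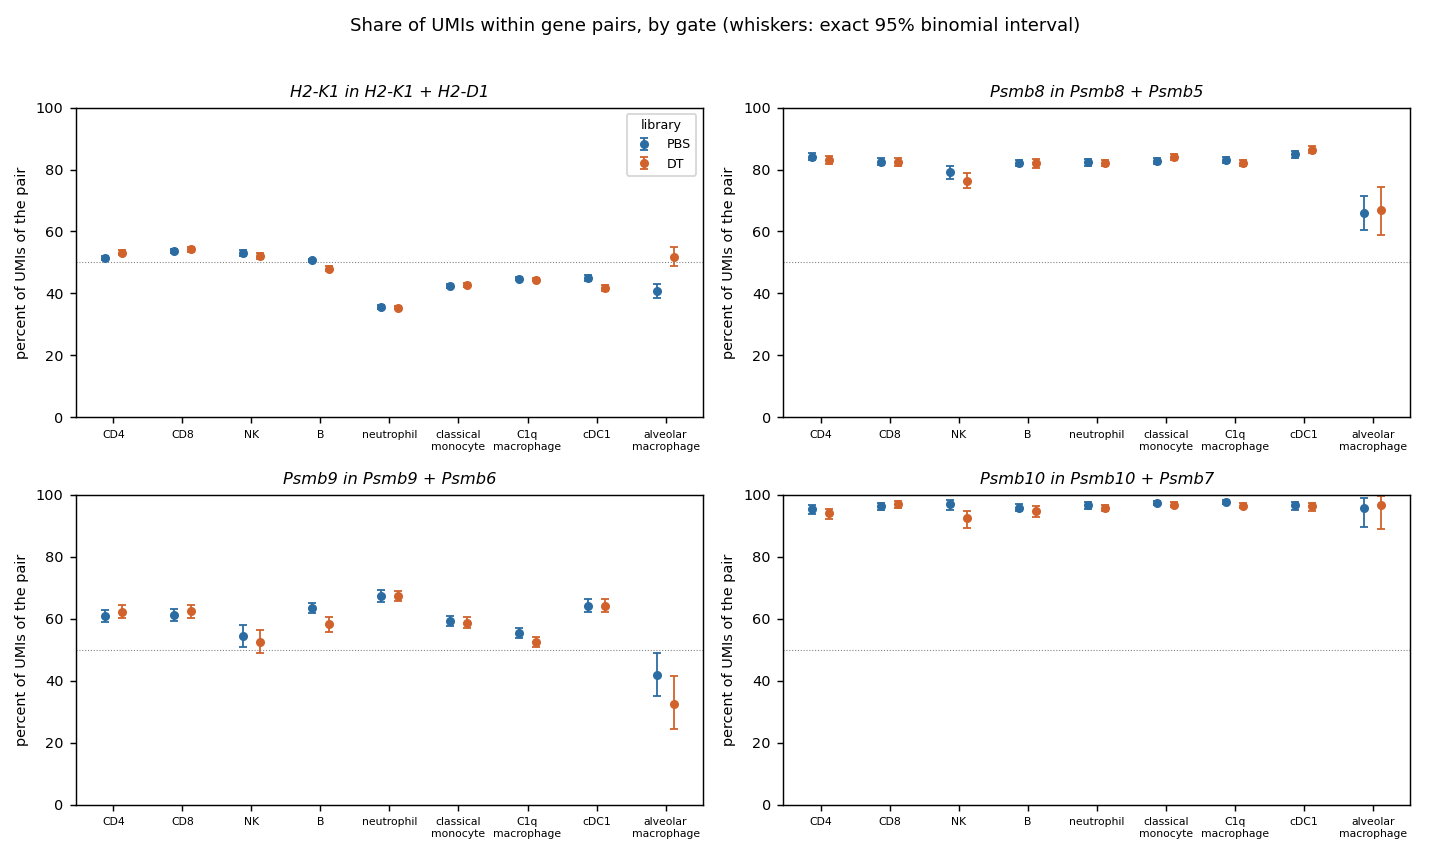
Share of UMIs (y axis, percent) of H2-K1 within H2-K1 plus H2-D1 and of each immunosubunit within the pair with its constitutive partner, by gate (x axis) and library, with exact 95% binomial intervals. Neutrophils lie lowest for H2-K1 near 35%, and alveolar macrophages lie lowest for Psmb8 and Psmb9.

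All 3 pairs summed, the immunosubunit share was 71.6% to 80.9% in 8 gates and 62.1% (58.1 to 66.0) in PBS and 59.6% (54.2 to 64.9) in DT alveolar macrophages. Between the libraries, its intervals met in 7 gates. They did not meet in NK cells, at 75.4% (73.7 to 77.0) against 71.6% (69.7 to 73.4), nor in C1q macrophages, at 76.8% (76.1 to 77.6) against 74.97% (74.2 to 75.7). For single pairs, the Psmb9 share stood apart in B cells only, at 63.4% and 58.2%, and the Psmb10 share in NK cells only, at 97.04% on 13 and 92.3% on 29 Psmb7 UMIs. Among NK cells that passed no other gate the summed share was 73.0% and 71.7%, and among such C1q macrophages 72.8% and 72.2%.

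Nlrc5 was a sparse transcript with a T cell lead. CD4 had 85.0 CPM in PBS and 103 in DT, CD8 74.3 and 100, NK 69.3 and 75.4, monocytes 63.3 and 82.7, and neutrophils 62.7 and 72.6. C1q macrophages had 61.9 and 62.3, cDC1 56.0 and 66.5, and B cells 35.8 and 41.8. Alveolar macrophages had 14 and 5 UMIs in all, or 27.4 and 18.8 CPM. In both libraries the intervals of all neighbours from CD4 down overlapped until the step to B cells. The gate with the highest Nlrc5, CD4, was also the highest for Tap2, but not for Tap1, Psmb8 or Psmb9. Across the 18 gate and library points, Nlrc5 had a Pearson r of 0.80 with Tap2, 0.77 with Tap1, 0.72 with Psmb8 and 0.71 with Psmb9. With H2-D1 it was 0.65, with H2-K1 0.55, with Psmb10 0.44, with B2m 0.19 and with Tapbp -0.05.

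As a description across the 18 gate and library points, which share cells between gates and RNA between the points of a library, the genes with the closest log2 levels were Tap1 and Psmb9 (Pearson r 0.96), Psmb8 and Psmb9 (0.95) and Tap1 and Psmb8 (0.94). Tap1 and Psmb9 are the pair with the divergent starts printed above. The heavy chains H2-K1 and H2-D1, whose promoter windows were aligned above, had an r of 0.40. The part of promoter sequence in these levels was not tested. By the same measure, of 2067 other genes the one closest to the mean of the 10 was Psme2b (0.94), a near copy of the proteasome activator gene Psme2 whose reads may be split between them. The next were Eno1 (0.93), which encodes a glycolytic enzyme, Elob (0.92), Ccdc12 (0.90), Sin3b (0.90), Cox8a (0.87), S100a4 (0.86), the class I gene H2-T23 (0.86), Gm7776 (0.86) and Prelid1 (0.85). Psme2b had 549 CPM in PBS and 628 in DT in cDC1 and 257 and 228 in B cells.

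The comparison of DT with PBS asks whether leukocytes from lungs given toxin carried more or less of these RNAs. Ratios are log2((DT CPM + 5)/(PBS CPM + 5)), with the 95% counting interval of the plain ratio, and a value is counted past a fold only where PBS and DT sum to at least 100 UMIs. The folds are 1.5-fold and a looser one, 25% higher or 20% lower. None of the 90 values, 10 genes in 9 gates, lay past 1.5-fold in either direction, with 3 values under the UMI minimum. Past the looser fold, 6 were higher in DT and 1 lower. The counting interval lay above 1 for 29 values and below 1 for 23. Among all genes it lay above 1 for 8.95% to 22.1% and below 1 for 7.49% to 11.8%, depending on the gate. Counting error leaves out the spread between mice, and for genes with many UMIs the interval is narrow.

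By gene, Tapbp was above 0 in 8 of 9 gates, from -0.02 in NK to 0.37 in alveolar macrophages, with the interval above 1 in 7. Tap2 was above 0 in 8 of 9 (interval above 1 in 4, below 1 in NK) and Nlrc5 in 8 of 9 (interval above 1 in 4). H2-D1 was below 0 in 9 of 9 gates, from -0.18 to -0.00, with the interval below 1 in 7, and Psmb8 in 8 of 9, with the interval below 1 in 5. H2-K1 was below 0 in 7 gates and B2m above 0 in 7. Tap1 was above 0 in 6, Psmb9 in 5 and Psmb10 in 4. Of all genes in a gate, 47.6% (cDC1) to 60.0% (B) lay above 0. The gates share cells and the same 2 libraries, so these counts over gates are not independent.

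**Figure D3:**
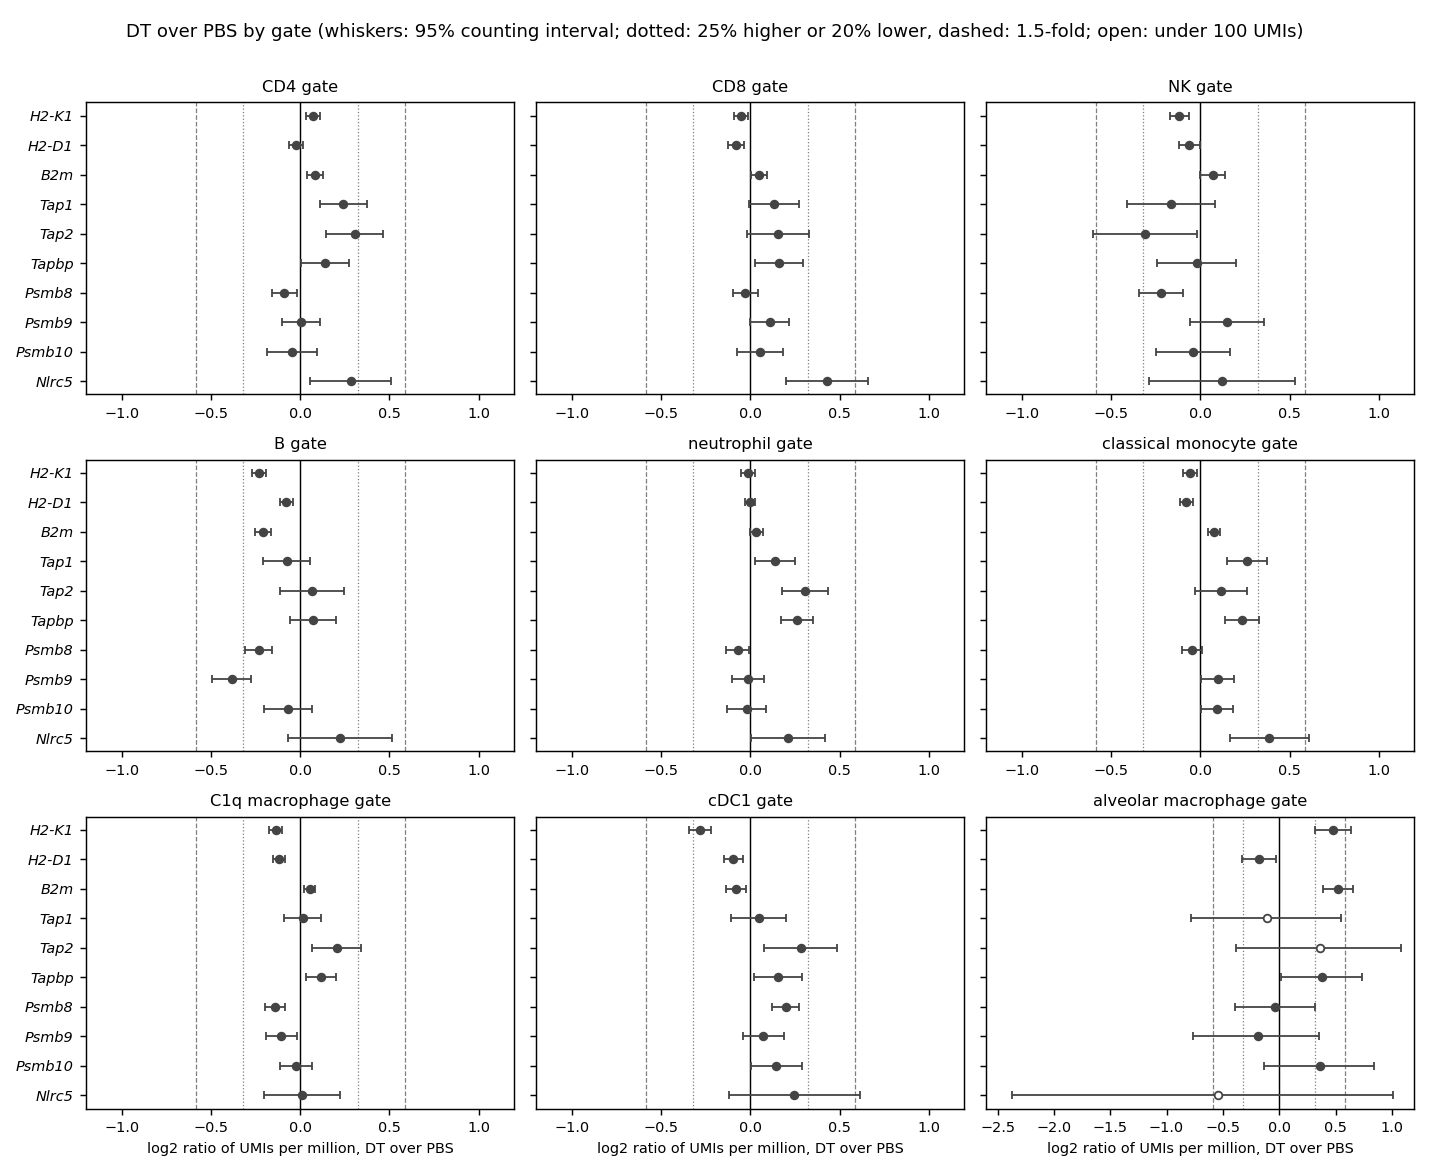
Log2 ratio of CPM, DT over PBS, without added CPM (x axis) for the 10 genes (y axis) in each gate, with 95% counting intervals. Dotted lines mark the looser fold and dashed lines 1.5-fold, open points rest on under 100 UMIs, and the alveolar macrophage panel has a wider axis; no filled point lies past 1.5-fold.

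In the CD4 gate, 0 of 10 genes lay past either fold, where 1.55% of 7600 genes were higher and 1.05% lower past 1.5-fold, and 10.5% and 4.68% past the looser fold. The interval lay above 1 for 6 genes and below 1 for 1, against 12.9% and 7.61% of all genes, most of which have far fewer UMIs. Tap2, at 173 CPM in PBS and 214 in DT, gave 0.30 (ratio 1.11 to 1.38), Nlrc5 0.27 (1.04 to 1.42) and Tap1 0.24 (1.08 to 1.30). Psmb8 was lower, at -0.09 (0.895 to 0.986). The median of the 10 genes was 0.08, beside 0.05 over all 12142 genes.

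In the CD8 gate, 1 of 10 genes lay past the looser fold and higher in DT and 0 lower, against 7.97% and 6.12% of 7550 genes, and 0 past 1.5-fold, against 1.27% higher and 1.27% lower. That gene was Nlrc5, at 74.3 CPM in PBS and 100 in DT, or 0.41 (1.15 to 1.58). The interval lay above 1 for 3 genes (10.6% of all genes) and below 1 for 2 (8.83%), which were H2-K1 at -0.05 and H2-D1 at -0.08. The median was 0.08, beside 0.02 over all genes.

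In the NK gate no gene passed 1.5-fold (2.20% of 4367 genes higher, 1.51% lower) or the looser fold (10.0% and 8.82%). The interval lay below 1 for 4 genes (7.49% of all) and above 1 for 0 (8.95%). Tap2 at 158 CPM in PBS and 128 in DT gave -0.30 (0.659 to 0.988), Psmb8 -0.22 (0.787 to 0.937), H2-K1 -0.12 (0.887 to 0.958) and H2-D1 -0.06 (0.920 to 0.997). The median was -0.05, beside 0.00 over all genes.

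The B gate was the one with the most intervals below 1, for 5 genes (10.5% of 8589 genes) with 0 above 1 (22.1%). Psmb9, at 322 CPM in PBS and 246 in DT, gave -0.38 (0.709 to 0.826) and was the 1 gene past the looser fold and lower in DT, against 5.80% of genes, while 0 were higher, against 16.4%. None passed 1.5-fold (2.70% and 1.73%). H2-K1 gave -0.23 (0.829 to 0.874), Psmb8 -0.23 (0.808 to 0.895) and B2m -0.21 (0.837 to 0.892). The median of the 10 was -0.08, beside 0.07 over all genes. The B cell marker list summed to 13814 CPM in PBS and 8946 in DT with 6 of 6 above 0 in both, and the epithelial list to 68.6 and 884 with 4 of 4 above 0. Their part in the result was not tested.

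In the neutrophil gate 4 genes had the interval above 1 (14.6% of 8282 genes) and 1 below (11.8%). Tap2, at 153 CPM in PBS and 190 in DT, gave 0.30 (1.13 to 1.35), Tapbp 0.26 (1.13 to 1.27), Nlrc5 0.20 (1.00 to 1.34) and Tap1 0.14 (1.02 to 1.19), while Psmb8 gave -0.07 (0.910 to 0.996). H2-K1 and H2-D1 had intervals that included 1, at -0.01 and -0.00. None passed the looser fold (7.90% of genes higher, 5.45% lower) or 1.5-fold (1.36% and 1.46%). The median was 0.02, as over all genes, and the B cell list in this gate summed to 1859 CPM in PBS and 307 in DT, 6 of 6 above 0 in both, its part not tested.

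In the classical monocyte gate the interval lay above 1 for 6 genes (10.6% of 8089 genes) and below 1 for 2 (10.0%). Nlrc5, at 63.3 CPM in PBS and 82.7 in DT, gave 0.36 (1.12 to 1.52) and was the 1 gene past the looser fold and higher in DT (6.47% of genes), with 0 lower (5.12%). Tap1 gave 0.26 (1.11 to 1.30) and Tapbp 0.23 (1.10 to 1.255), while H2-D1 gave -0.08 (0.925 to 0.970). No gene passed 1.5-fold (1.04% and 0.754%). The median was 0.09, beside 0.01 over all genes.

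In the C1q macrophage gate 3 genes had the interval above 1 (13.6% of 8734 genes) and 4 below (9.38%). Tap2 gave 0.20 (1.05 to 1.27) and Tapbp 0.12 (1.02 to 1.15), while Psmb8, at 930 CPM in PBS and 844 in DT, gave -0.14 (0.872 to 0.943), H2-K1 -0.14, H2-D1 -0.12 and Psmb9 -0.11. None passed the looser fold (6.55% higher, 4.85% lower) or 1.5-fold (0.813% and 1.31%). The median was -0.01, beside 0.02 over all genes. The B cell list summed to 1658 CPM in PBS and 151 in DT, 6 of 6 above 0 in both, its part not tested.

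In the cDC1 gate 3 genes had the interval below 1 and 4 above it. H2-K1, at 2291 CPM in PBS and 1881 in DT, gave -0.28 (0.787 to 0.857), H2-D1 -0.09 and B2m -0.08, the 3 genes with the interval below 1 (10.8% of 5428 genes). Tap2 gave 0.27 (1.05 to 1.40), Psmb8 0.20 (1.09 to 1.21), Tapbp 0.15 and Psmb10 0.14, the 4 genes with it above 1 (9.06%). None passed the looser fold (8.75% higher, 10.2% lower) or 1.5-fold (1.51% and 2.98%). The median was 0.11, beside -0.02 over all genes. Among the cells that passed only this gate the median of the 10 was -0.12. There H2-K1 had 2059 CPM in PBS and 1479 in DT and Psmb8 had 1409 and 1761, while Tap1 (391 and 340), Tap2 (234 and 219) and Psmb9 (746 and 663) lay lower in DT.

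The alveolar macrophage gate had the largest ratios and the fewest cells, 64 in PBS and 28 in DT. B2m, at 2098 CPM in PBS and 3007 in DT, gave 0.52 (1.31 to 1.57), H2-K1 0.48 (1.245 to 1.56), Tapbp 0.37 (1.01 to 1.66) and Psmb10 0.35 (0.909 to 1.80), the 4 of 7 genes past the looser fold and higher in DT, against 15.9% of 1221 genes, and 0 were lower, against 14.0%. None passed 1.5-fold (4.01% and 5.57%). The median over the 9 genes with enough UMIs was 0.34, with 5 above and 4 below 0, beside 0.00 over all genes. The interval lay above 1 for 3 (11.2%) and below 1 for H2-D1 alone (9.58%), at -0.18 (0.795 to 0.983). The H2-K1 share of the heavy chains was 40.7% (38.4 to 42.9) for PBS against 51.9% (48.8 to 55.0) for DT, the widest gap between the libraries in any gate. In DT, 14 of 28 of these cells also passed another gate, against 20 of 64 in PBS. The neutrophil gate was also passed by 7 of the DT cells (25%) and 6 of the PBS cells (9.38%). Among alveolar macrophage gate cells that passed no other gate, the H2-K1 share was 39.5% in PBS and 46.8% in DT. The part of the overlap in these values was not tested.

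The rest of the route was read from gene lists around the 10, whose counts past 1.5-fold stand beside 0.754% to 5.57% of all genes in each direction, depending on the gate, as given above. The 15 constitutive and shared proteasome genes had 0 values past 1.5-fold in any gate, with medians from -0.08 (B) to 0.32 (alveolar macrophage), and the same was true of the 3 genes of the PA28 activator, from -0.16 (B) to 0.25. The 7 peptide-loading genes had medians from -0.18 (NK) to 0.31 (alveolar macrophage) and 1 value past the fold. It was the endoplasmic reticulum chaperone Hspa5 in B cells, at 413 CPM in PBS and 226 in DT (-0.85, ratio 0.509 to 0.592). Calreticulin (Calr), which holds class I molecules for loading, was below 0 in all 9 gates, from -0.50 in B cells to -0.04 in alveolar macrophages. Canx, of the same list, did not share this. It gave 0.17 in CD4, 0.14 in C1q macrophages and 0.28 in alveolar macrophages, but -0.09 in CD8 and -0.05 in neutrophils. The 10 other class I and class I-like genes had medians from -0.09 (C1q macrophage) to 0.43 (alveolar macrophage), with H2-Q7 past the fold in cDC1, at 400 and 264 CPM (-0.59, 0.590 to 0.734).

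The 23 regulators, which are the signalling and promoter factors of the class I genes, had medians from -0.22 (alveolar macrophage) to 0.07 (neutrophil). Past 1.5-fold were Jak2, the interferon-gamma receptor kinase, in B cells (44.1 CPM in PBS and 72.6 in DT, 0.66), Irf8 in CD8 (294 and 141, -1.04) and the type I interferon receptor chain Ifnar2 in NK (55.7 and 35.4, -0.59). Irf1, a factor that binds the ISRE, lay between -0.08 and 0.30. In the CD8 gate the cDC1 marker list, which holds Irf8, summed to 405 CPM in PBS and 233 in DT and the B cell list to 441 and 263, 6 of 6 above 0 in each, and their part was not tested.

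The 20 interferon-gamma target genes had medians from -0.25 (NK) to 0.19 (neutrophil). Past 1.5-fold and lower in DT were the chemokine Cxcl9 in CD4 (500 CPM in PBS and 270 in DT, -0.88) and CD8 (346 and 169, -1.01) and the class II transactivator Ciita in CD8 (36.2 and 19.1, -0.77). In PBS, Cxcl9 had 1842 CPM in the cDC1 gate and 1767 in C1q macrophages, where Ciita had 226 and 187. Of CD4 cells, 10.0% in PBS and 8.93% in DT also passed the C1q macrophage gate. Of CD8 cells, 3.78% and 1.22% also passed the cDC1 gate. The part of such mixed cells in these T cell gate values was not tested. In NK cells the GTPases Igtp (-0.73) and Tgtp2 (139 and 64.6, -1.04) were lower, and Cd274, which encodes PD-L1, was higher (34.3 and 61.5, 0.76). The chemokine Cxcl10 went opposite ways, at 35.5 and 84.4 in B cells (1.14) and 393 and 193 in cDC1 (-1.01), and Gbp5 was higher in cDC1 (72.1 and 114, 0.63). Neutrophil, monocyte, C1q macrophage and alveolar macrophage gates had 0 genes of these lists past the fold.

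The libraries differed in the sex of their cells, and the ratios above take all cells together. Male-called cells had UMIs of the Y-linked Ddx3y, Eif2s3y, Kdm5d or Uty without Xist, and female-called cells had Xist without any of these 4. Of the called cells, 87.2% were male-called in PBS and 31.9% in DT, and by gate the male-called share was 82.9% to 96.4% in PBS and 15.5% to 52.3% in DT. Ratios were therefore also taken within called cells, where at least 20 cells of a kind were present in both libraries.

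**Figure D4:**
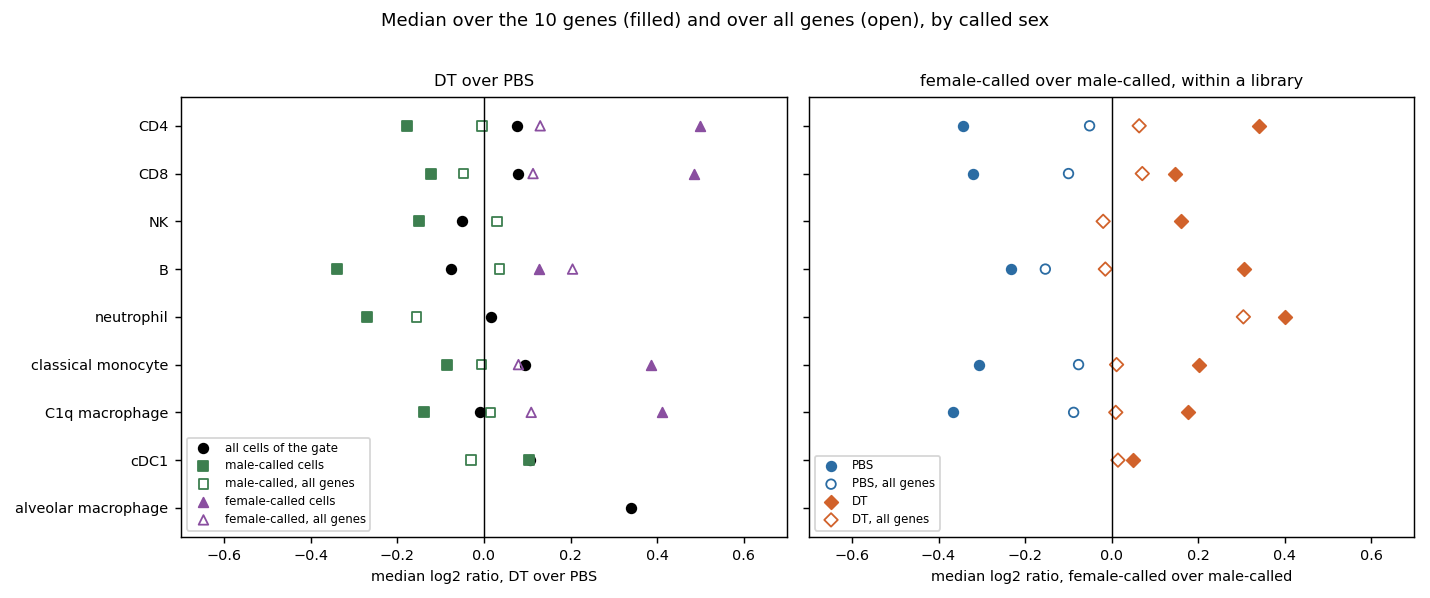
Left, median log2 ratio of DT over PBS (x axis) over the 10 genes by gate (y axis) for all cells, male-called cells and female-called cells. Right, median log2 ratio of female-called over male-called cells within each library; open symbols give the median over all genes, and on the right the filled PBS points lie below 0 and the filled DT points above it.

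Within male-called cells the median of the 10 genes lay below 0 in 7 of 8 gates: -0.18 in CD4 (284 PBS and 48 DT cells), -0.12 in CD8, -0.15 in NK, -0.34 in B, -0.27 in neutrophils, -0.09 in monocytes and -0.14 in C1q macrophages. The cDC1 gate had 0.10 on 33 DT cells. Within female-called cells it lay above 0 in 5 of 5 gates: 0.50 in CD4 (26 PBS and 262 DT cells), 0.48 in CD8, 0.13 in B, 0.39 in monocytes and 0.41 in C1q macrophages. The medians over all genes were -0.16 to 0.04 among the former and 0.08 to 0.20 among the latter. The sign of the median was thus opposite in the 2 kinds of cells in the CD4, CD8, monocyte and C1q macrophage gates, also relative to all genes. In B cells it lay below the all-gene median in both, at -0.34 beside 0.04 if male-called and at 0.13 beside 0.20 if female-called.

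Single genes showed the size of this split. Psmb8 in male-called CD4 cells stood at 1045 CPM in PBS and 761 in DT (-0.45, ratio 0.632 to 0.836) and in female-called CD4 cells at 846 and 1059 (0.32, 1.05 to 1.496). In C1q macrophages it stood at 977 and 745 if male-called (-0.39, 0.693 to 0.838), but at 385 and 880 if female-called (1.18, 1.90 to 2.77). Tap1 in CD4 cells had 266 and 237 if male-called (-0.17, 0.683 to 1.14), but 161 and 317 if female-called (0.96, 1.34 to 3.05), the latter on 26 PBS UMIs. H2-K1 in male-called neutrophils had 2194 and 1528 (-0.52, 0.659 to 0.737), where the interval for all neutrophils included 1. Psmb8 in male-called cells had the interval below 1 in 7 of 8 gates, and in female-called cells above 1 in 4 of 5.

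Within a single library, female-called cells lay below male-called cells in PBS and above them in DT, gate by gate in the medians of the 10 genes. In PBS the median log2 ratio of female-called over male-called cells was -0.34 in CD4, -0.32 in CD8, -0.23 in B, -0.31 in monocytes and -0.37 in C1q macrophages. In DT it was 0.34 in CD4, 0.15 in CD8, 0.16 in NK, 0.31 in B, 0.40 in neutrophils, 0.20 in monocytes, 0.18 in C1q macrophages and 0.05 in cDC1. The medians over all genes ran from -0.15 to -0.05 in PBS and from -0.02 to 0.30 in DT. Depth and gate overlap differed along with it in most gates. Female-called cells were deeper than male-called cells in every DT gate listed, for example 5502 against 4228.5 median UMIs in CD4. They were shallower in PBS CD8, monocytes and C1q macrophages. Their share in another gate was higher in every DT gate listed and lower in every PBS gate but CD4. PBS C1q macrophages had a median of 11682.5 UMIs if male-called, but 6382 if female-called, with 68.0% and 29.3% in another gate. DT neutrophils had 2575 and 7283.5, with 16.9% and 60.3%. In PBS CD4 and B cells, female-called cells were instead slightly deeper. The medians were 5663.5 if male-called and 6013 if female-called in CD4, with 31.3% and 34.6% in another gate. In B they were 3367.5 and 3407, with 15.6% and 7.58%.

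Among cells that passed only 1 gate the pattern was similar, with -0.58 in PBS and 0.24 in DT C1q macrophages and -0.29 and 0.41 in monocytes, but B cells had -0.08 in PBS beside an all-gene median of -0.14, and 0.20 in DT. The part of cell depth, of mixed droplets and of the animals' sex in these ratios was not tested. With 1 library per group, the treatment, the animals and the sex balance cannot be told apart. A sex was called for 2472 male-called and 362 female-called of 5651 PBS cells and for 903 and 1926 of 5896 DT cells.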

How the data were processed

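The deposited values were log2(CPM + 1) per cell and gene, in 1 table per library; per the submitters' processing notes the authors used STAR, Seurat and Partek with mm10, their roles and versions being not given in the sources used here. An analysis plan assumed counts, so each cell's UMIs were recovered from the smallest step of its log2 values before use. Kept cells had 200 genes and 500 UMIs or more, with mitochondrial UMIs at 10% or less. UMIs were summed over each gate and scaled to CPM. With 1 library per group no test was possible, and exact 95% Poisson, binomial and conditional binomial intervals cover counting error only, with free RNA and doublets uncorrected. Medians used genes with at least 20 UMIs, and folds at least 100. The 10 genes were named throughout, and other list genes only where past 1.5-fold, apart from Calr, Canx and Irf1. Calr and Irf1 were chosen for their role and Canx to set beside Calr, all after their values were seen. The genes closest in pattern were the 10 with the highest Pearson r. The members, gates and lists were chosen with earlier results of these data known. Sex was called per cell after seeing the data. Tools were Python 3.11.15, numpy 2.4.6, scipy 1.17.1 and pandas 2.3.3, tested on simulated counts.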

Additional observations from a re-analysis of the deposited data

Results flagged for a closer look

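For 5 of the 10 genes the counting interval of DT over PBS lay above 1 in at least 1 gate and below 1 in another, and the difference between the gates was not tested. The values below are the highest and lowest among gates whose interval excluded 1, on the log2 scale. H2-K1 ran from 0.48 in alveolar macrophages to -0.28 in the cDC1 gate, and B2m from 0.52 in alveolar macrophages to -0.21 in B cells. Tap2 ran from 0.30 in neutrophils to -0.30 in NK cells. Psmb8 ran from 0.20 in the cDC1 gate to -0.23 in B cells, and Psmb9 from 0.10 in monocytes to -0.38 in B cells. The alveolar macrophage values rest on 64 PBS and 28 DT cells.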

How the results depend on the processing

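No paired analysis was possible because each group holds 1 library, and no replicate could be left out. No median over the 10 genes reached 1.5-fold under any of the alternatives run. In B cells it was -0.48 as a mean of the deposited log2 values, -0.17 with TMM scaling, -0.17 with median-of-ratios scaling, -0.34 if male-called, 0.13 if female-called. In CD4 it was 0.18 after thinning, -0.0316 on log2 values, 0.0098 with TMM and 0.0146 with median-of-ratios scaling, -0.18 if male-called, 0.50 if female-called. In CD8 it was -0.0919 on log2 values, -0.12 if male-called, 0.48 if female-called. In the cDC1 gate it was -0.12 in cells of 1 gate and -0.0379 on log2 values. In neutrophils it was 0.0918 in cells of 1 gate, 0.0689 after thinning, 0.0608 with each cell weighing the same, and -0.27 in male-called cells. Monocytes gave -0.086 if male-called, 0.39 if female-called, while the median was 0.41 in female-called C1q macrophages.

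Called sex within cells of 1 gate was an alternative chosen after seeing the data. There B cells gave -0.26 if male-called, 0.0364 if female-called, -0.31 and 0.45 in C1q macrophages, -0.14 and 0.50 in CD8, and -0.27 and 0.42 in monocytes. It was -0.23 in male-called CD4, -0.21 in male-called cDC1 and -0.26 in male-called neutrophils. The immunosubunit share, DT minus PBS, was -5.07 points in male-called and 9.50 in female-called C1q macrophages, -6.84 in male-called CD4, 1.81 in male-called and -1.98 in female-called monocytes, and 3.55 in male-called neutrophils. The causes were not tested. Of 90 single gene values, 25 took the other side of 0 on log2 values, 19 after thinning, 15 in cells of 1 gate, 11 with each cell weighing the same, 7 with a companion marker, 5 with each other scaling and 4 with 10% free RNA removed, as did 29 of 80 male-called values, 17 of 50 female-called. With 1 or 20 CPM added, all deposited cells kept, or cells of at least 500 genes and 1000 UMIs, 0 did. Depth limits Nlrc5, Tap1 and Tap2 in alveolar macrophages, and Psmb7 in the 6 gates where both libraries together gave it under 100 UMIs.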
